A study of Mus musculus with 4 samples.

Results

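The genes described here are 10 genes listed as responsive to thyroid hormone, Klf9, Hr, Dbp, Nrgn, Ky, Itih3, Stard4, Sema7a, Flywch2 and Kcnj10, out of 32285 genes counted in mouse hypothalamus by single-nucleus RNA sequencing. They were taken by name, but the list was chosen with earlier results of these data known. Each was followed through every annotated cell type, with emphasis on cell types other than oligodendrocytes. The mice were adult males, either wild type or TRα1+m, heterozygous for the R384C exchange in thyroid hormone receptor α1, on a C57/BL6NCr background. Every library pooled the nuclei of 3 mice of a genotype, whose individual contributions cannot be separated, and the 4 libraries came from 2 experimental repeats with both genotypes in each (n = 2 libraries per genotype throughout). The labels name no hormone treatment for these 4 libraries, so the values show a difference between genotypes and not a response to added hormone.

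Thyroid hormone acts through nuclear receptors that sit on DNA with or without hormone, recruiting corepressors when empty and coactivators once T3 is bound. The R384C receptor binds T3 with strongly reduced affinity, and in heterozygous animals it works against the normal receptors. Klf9 and Hr are textbook examples of genes induced by T3 in brain, and astrocytes and tanycytes are the cells that take up thyroxine and convert it to T3 for their neighbours.

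UMIs (unique molecular identifiers, 1 per captured RNA molecule) were summed over all nuclei of a cell type in a library and are given as CPM, counts scaled to a common total with TMM factors. That total held only the genes with enough counts to be tested in the cell type. These were 3705 in the Non-neuronal cluster and 14072 in the astrocyte sub-cluster. Levels therefore tend to come out higher where fewer genes were tested. They are compared between cell types with that limit. Gene length was not used, so they are not compared between genes. edgeR's quasi-likelihood test with Benjamini-Hochberg adjustment over all genes compared the genotypes within a cell type, and a gene was called at an adjusted p under 0.05. A positive log2 fold change means a higher level in TRα1+m. Because the libraries of a repeat deviated together, a fit that takes the repeat as a block was run beside it, and its adjusted p is given beside each member that it called. That block leaves 1 residual degree of freedom per gene, and in several cell types its p-values rest almost wholly on the spread pooled over all genes. With that pooling the median degrees of freedom differed widely, such as 8.52 in Neurons_1, 78.4 in the main astrocyte cluster and 14072 in the astrocyte sub-cluster. Numbers of blocked calls are therefore not comparable between cell types. With 2 against 2 libraries an exact two-sided permutation test cannot give a p below 0.333.

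The 56386 annotated nuclei fell into 7 main clusters, of which 6 had at least 10 nuclei in every library. Neurons_2 was not tested, since 852 of its 864 nuclei came from the TRα1+m library of repeat 2. Of 17 sub-clusters 14 were tested, 12 of them neuronal and the others astrocytes and tanycytes. Libraries shared between 44 and 64 cell barcodes pairwise. The cluster named Non-neuronal cells holds only 207 nuclei, and its summed level of 5 astrocyte markers (5546 to 7918 CPM) and of 5 oligodendrocyte markers (7066 to 15589 CPM) overlapped with the range in astrocytes (6560 to 10106 CPM) and in oligodendrocytes (10347 to 23922 CPM), respectively. It is therefore kept under its deposited name and not read as a single cell type. In the other clusters the markers fixed for the name had a mean above 10 CPM. This held for all 5 markers of astrocytes, oligodendrocytes, tanycytes and microglia, all 6 of neurons and 3 of 3 of OPC. That level does not tell clusters apart: all 5 astrocyte and all 6 neuronal markers also passed it in oligodendrocytes. The sums did differ, such as 3381 to 3658 CPM of neuronal markers in Neurons_1 against 672 to 911 CPM in oligodendrocytes. The microglia and macrophage cluster also carried all 5 endothelial and mural markers, at 332 and 800 CPM in wild type and 347 and 1209 CPM in TRα1+m, and all 6 markers of VLMC (462 and 741 against 337 and 911 CPM).

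The sub-cluster deposited as MCH Neurons, named for melanin-concentrating hormone, stood apart from the other neurons. Pmch, the gene of that hormone, stood there at 1490 and 2367 CPM (without TMM factors) in the wild-type and TRα1+m libraries of repeat 1 and at 18964 and 15145 CPM in those of repeat 2. Endothelial and mural markers summed to 691 and 2147 CPM in wild type and 1681 and 3134 CPM in TRα1+m, against means of 11.7 to 23.5 CPM in the other 11 neuronal sub-clusters, and the 5 astrocyte markers averaged 1174 CPM against 230 to 366 CPM. Its median depth was 1855 and 1481 UMIs per nucleus in wild type and 3840 and 1499 in TRα1+m, so the TRα1+m library of repeat 1 was the deepest. Its values are therefore given under the deposited name and not read as those of a single neuron type.

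RNA of astrocyte genes was counted in every cluster. The 5 astrocyte markers (Agt, Aqp4, Slc1a2, Slc1a3 and Gja1) together stood in Neurons_1 at 325 and 264 CPM in wild type and at 415 and 186 CPM in TRα1+m, repeats 1 and 2. The highest and the lowest value thus both came from TRα1+m libraries. In bulk sums of this kind, fewer nuclei with a transcript and less RNA per nucleus cannot be told apart.

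By GENCODE M21 on GRCm38, Klf9 spans chr19:23141226-23168134 (+), Hr chr14:70552212-70573548 (+), Dbp chr7:45705088-45710203 (+), Kcnj10 chr1:172341210-172374085 (+) and Itih3 chr14:30908572-30923760 (−). Ky spans chr9:102505750-102546239 (+), Nrgn chr9:37544492-37552904 (−), Sema7a chr9:57940112-57962865 (+) and Flywch2 chr17:23776916-23786081 (−). Introns were counted, so reads from anywhere in these spans contribute. Dbp overlaps Sphk2 and Flywch2 overlaps Gm16275 on the opposite strand.

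Of the 10 genes 8 have an entry among the RefSeq promoters on GRCm38.p6, each 250 bases before to 50 after the start, and Hr and Stard4 have none. The windows of Ky (chr9:102505888-102506187, +), Kcnj10 (chr1:172340960-172341259, +), Flywch2 (chr17:23786032-23786331, −) and Itih3 (chr14:30923538-30923837, −) are shown because these 4 genes were lower in TRα1+m astrocytes in both repeats and were called there with the repeat as a block. Each reads 5′ to 3′ on the strand of the gene, and capitals mark the core GGTCA of the thyroid hormone receptor half-site on either strand, where the opposite strand reads TGACC.
Ky promoter: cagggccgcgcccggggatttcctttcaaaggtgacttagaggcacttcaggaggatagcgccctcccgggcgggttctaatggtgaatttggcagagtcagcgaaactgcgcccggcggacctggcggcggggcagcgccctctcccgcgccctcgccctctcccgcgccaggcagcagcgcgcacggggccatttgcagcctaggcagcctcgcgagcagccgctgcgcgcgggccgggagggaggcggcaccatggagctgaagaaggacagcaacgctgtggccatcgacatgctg
Kcnj10 promoter: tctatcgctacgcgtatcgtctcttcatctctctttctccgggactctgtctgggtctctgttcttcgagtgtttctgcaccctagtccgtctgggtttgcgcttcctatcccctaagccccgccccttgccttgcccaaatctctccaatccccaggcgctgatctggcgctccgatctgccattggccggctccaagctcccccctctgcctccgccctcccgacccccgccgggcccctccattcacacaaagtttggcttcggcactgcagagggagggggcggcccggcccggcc
Flywch2 promoter: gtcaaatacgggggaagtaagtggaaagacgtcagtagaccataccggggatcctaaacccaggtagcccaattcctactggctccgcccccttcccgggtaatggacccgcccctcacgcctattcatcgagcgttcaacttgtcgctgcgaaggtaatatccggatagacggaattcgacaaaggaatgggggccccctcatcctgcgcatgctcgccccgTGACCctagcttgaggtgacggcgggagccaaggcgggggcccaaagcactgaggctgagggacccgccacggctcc
Itih3 promoter: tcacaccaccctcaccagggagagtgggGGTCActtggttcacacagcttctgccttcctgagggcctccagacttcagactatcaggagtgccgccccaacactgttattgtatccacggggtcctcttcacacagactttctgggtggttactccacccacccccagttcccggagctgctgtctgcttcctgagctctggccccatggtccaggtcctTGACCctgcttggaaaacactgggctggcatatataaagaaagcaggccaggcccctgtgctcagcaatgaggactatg
The full half-site AGGTCA, which contains that core, was in 0 of the 8 windows, against 16.3% of all 32851 promoters on either strand. The core GGTCA was in 3 of the 8, those of Sema7a, Itih3 and Flywch2, against 40.5% of all promoters. A direct repeat of AGGTCA with 4 bases between the copies was in 0 of the 8 and in 0.0152% of all promoters. The windows cover 300 bases next to a start and no element farther away.

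Where the genes are expressed differed widely between them. Over the 18 cell types (14 sub-clusters and 4 undivided main clusters), Kcnj10, Itih3 and Hr had their highest mean in the astrocyte sub-cluster. There Itih3 averaged 950 ± 474 CPM (SD, n = 4 libraries), Kcnj10 188 ± 52.6 CPM and Hr 32.5 ± 17.1 CPM. The next in line for each was the Non-neuronal cluster, with 745, 177 and 17.7 CPM, and the ranges over libraries overlapped. Klf9 had its highest means in the Non-neuronal cluster and in astrocytes, 213 ± 17.8 and 199 ± 26.3 CPM, which overlapped. Their order is not read, as the totals behind the CPM differ. Tanycytes followed at 107 ± 12.4 CPM, below both in every library.

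Ky was highest in the sub-cluster deposited as tanycytes. Its 29.5 ± 3.65 CPM in tanycytes lay above CART Neurons_1 (20.0 ± 4.59 CPM) without overlap of the libraries. Astrocytes had 10.1 ± 7.55 CPM over both genotypes, close to the Non-neuronal cluster at 10.7 ± 10.5 CPM. Sema7a and Stard4 peaked in the mixed sub-cluster deposited as MCH Neurons, at 37.1 ± 14.6 and 14.1 ± 3.12 CPM, each above the next type without overlap. Nrgn had its highest mean in Somatostatin+ Neurons at 93.8 ± 15.8 CPM, which overlapped with the next type, microglia and macrophages, at 75.5 ± 21.6 CPM. Dbp and Flywch2 had their highest means in microglia and macrophages, 60.1 ± 19.0 and 18.6 ± 5.06 CPM, but neither stood clear of the next types.

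**Figure D1:**
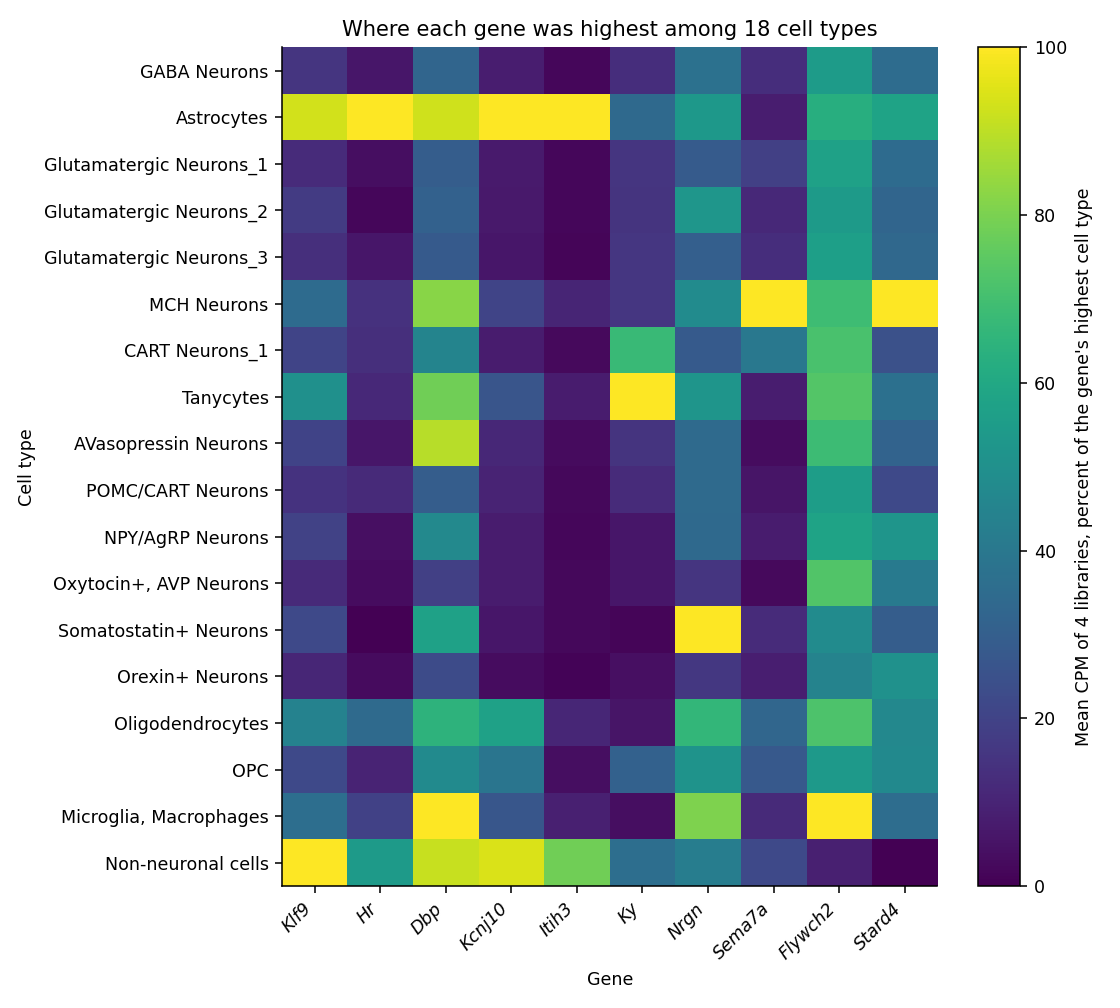
Mean CPM over 4 libraries in each of 18 cell types (rows) for the 10 genes (columns), as a percent of the gene's highest cell type. Astrocytes hold the highest mean of Hr, Kcnj10 and Itih3, tanycytes that of Ky, and MCH Neurons those of Sema7a and Stard4.

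The genes with the most similar pattern over these 18 cell types, by Pearson r of log2(mean CPM + 1) among 14099 genes, were Ntsr2 and Agt for Itih3 (r 0.985 and 0.984), Cd81 and Htra1 for Kcnj10 (0.978 and 0.975), Ppp1r3c and 2310022B05Rik for Klf9 (0.978 and 0.966) and Tkt and Appl2 for Hr (0.932 and 0.925). For Dbp they were H1f0 and Gcsh (0.944 and 0.926), for Flywch2 Nol6 and Syvn1 (0.938 and 0.928), and for Nrgn Lcmt1 and Rap2b (0.926 and 0.924). Ky, Stard4 and Sema7a were followed less closely, by Pcdhb16 and Spsb4 (0.859 and 0.837), by Ehd3 and Gnpnat1 (0.853 and 0.840) and by Acer2 and Zfp366 (0.760 and 0.739). CPM in this comparison were shares of all UMIs of the cell type, without TMM factors. These cell types share libraries and differ in depth, so the values are descriptions.

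Over the whole tissue, all 10 genes had a negative log2 fold change. The edgeR test called 0 of the 10 in the sum of all nuclei (0% of all 20698 genes were called), with 4 at an unadjusted p under 0.05 (1.31% of all genes), and DESeq2 also called 0. With the repeat as a block the edgeR test called 4 of 10, Kcnj10, Itih3, Hr and Flywch2 (0.415% of all genes). Its adjusted p was 0.011, 0.0083, 0.028 and 0.033. DESeq2 with that block called these 4 as well (0.273% of all genes). Hr had a log2 fold change of −1.11 ± 0.22 (SE) in all nuclei and −1.23 ± 0.23 outside oligodendrocytes. Oligodendrocytes held a minor part of the UMIs, for Hr 37 of 347 in wild-type repeat 1 and 29 of 140 in TRα1+m repeat 2. Leaving them out could therefore change little. Both sums include Neurons_2, with 852 of its 864 nuclei in 1 TRα1+m library. The block called the same 4 genes outside oligodendrocytes (0.583% of all genes). The adjusted p there was 0.00029 for Kcnj10, 4.3e-05 for Itih3, 0.00079 for Hr and 0.0031 for Flywch2. These are not comparable with those in all nuclei, as the median degrees of freedom were 21.2 against 10.2.

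In the 6 main clusters the test without a block called 0 members, and DESeq2 called 0. Over all genes the test called 0% in Neurons_1, astrocytes, OPC and microglia with macrophages, 0.103% in oligodendrocytes and 0.027% in the Non-neuronal cluster. At an unadjusted p under 0.05 there were 4 of the 10 tested members in astrocytes (1.72% of all 14797 genes), 3 of 10 in Neurons_1 (0.969%), 2 of 9 in oligodendrocytes (5.32%) and 1 of 6 in microglia and macrophages (2.16%). OPC had 0 of 8 (1.64%) and the Non-neuronal cluster 0 of 3 (4.16%).

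Both TRα1+m libraries lay below both wild-type libraries for 6 of 10 tested members in Neurons_1 (10.3% of all genes) and for 6 of 10 in astrocytes (12%, and 12.8% in the astrocyte sub-cluster, also with 6 of 10). The same held for 6 of 9 in oligodendrocytes (16%), 5 of 8 in OPC (13.5%), 3 of 6 in microglia and macrophages (13.2%) and 1 of 3 in the Non-neuronal cluster (16.6%). Members that passed the filter on low counts are the better expressed ones, so these counts do not speak for the others. The median log2 fold change of the 10 was −0.62 in astrocytes, −0.41 in Neurons_1 and −0.52 over the 9 tested in oligodendrocytes, while the median over all genes stayed between 0.0092 and 0.011 in these clusters. With the block the calls were 5 of 10 in astrocytes (1.28% of all genes; adjusted p 0.00059 for Kcnj10, 0.00012 for Ky, 3.5e-05 for Itih3, 5.1e-07 for Hr and 0.0047 for Flywch2), 2 of 9 in oligodendrocytes (4.35%), 1 of 3 in the Non-neuronal cluster (1.54%), 0 of 10 in Neurons_1 (0.01%), 0 of 8 in OPC (0.569%) and 0 of 6 in microglia and macrophages (0.335%). Astrocytes here are the whole main cluster, with tanycytes and VLMC. These numbers of calls are not comparable between cell types, given the differing degrees of freedom of the block fit. DESeq2 with the block called 3 in main clusters. These were Itih3 (0.023) and Hr (0.045) in astrocytes (0.0597% of all genes) and Kcnj10 in Neurons_1 (0.0363%).

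**Figure D2:**
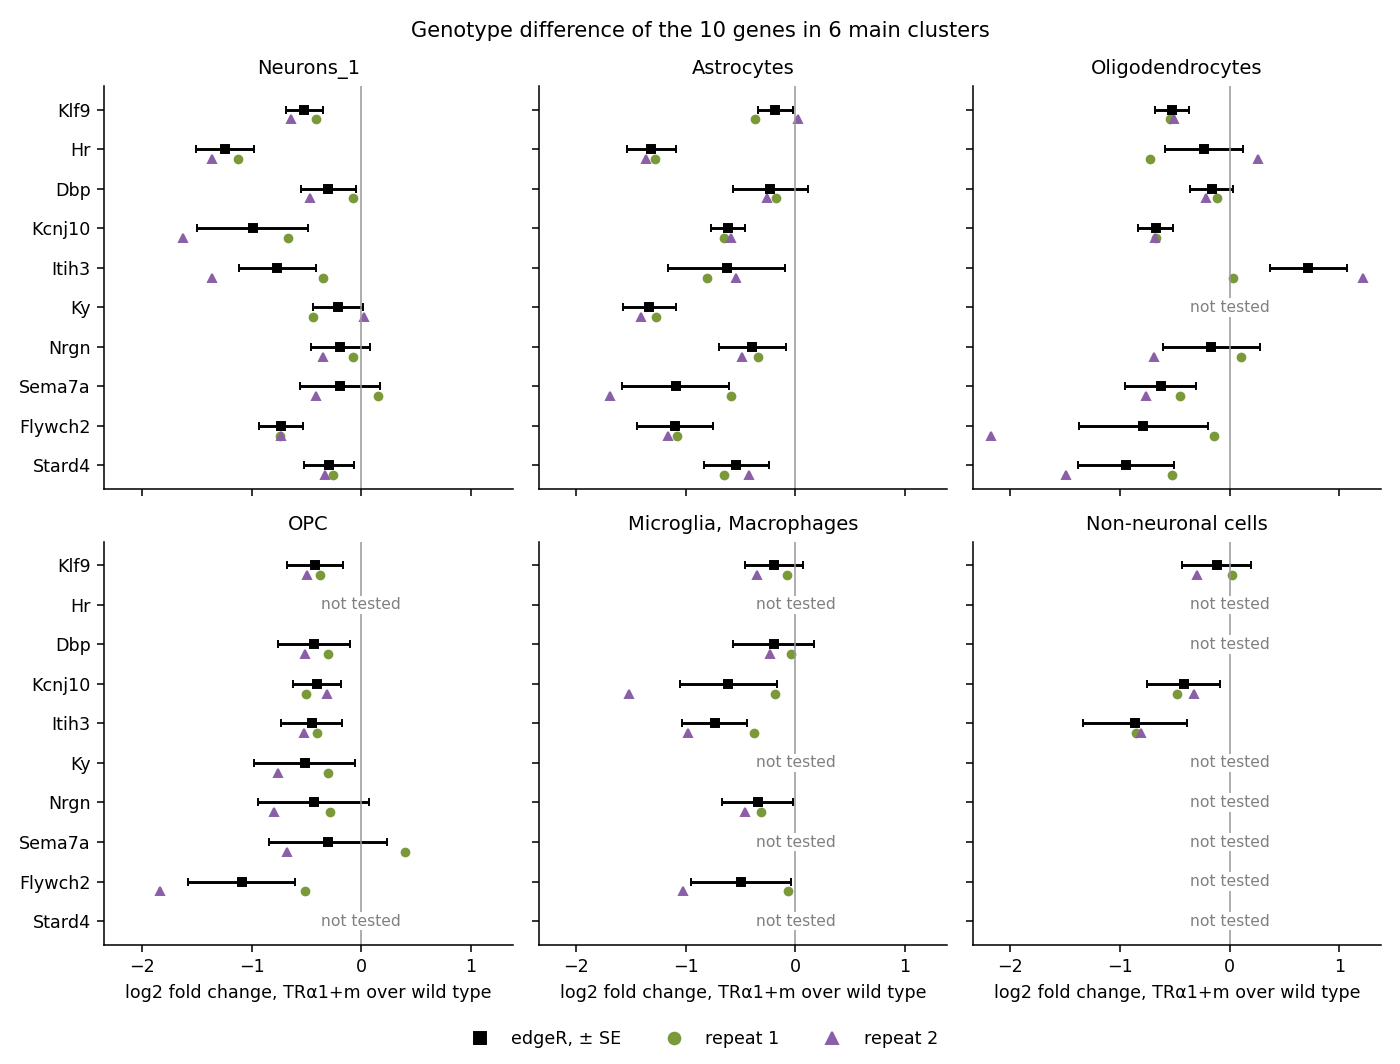
Log2 fold change, TRα1+m over wild type, of the 10 genes in the 6 tested main clusters: squares with bars are the edgeR estimate ± SE, circles and triangles the difference within repeats 1 and 2. Most points lie below 0. The exceptions include Itih3 in oligodendrocytes, at 0.035 and 1.21 in the repeats.

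The transcription regulators come first. Hr, the hairless corepressor that binds thyroid hormone receptors, stood in astrocytes (sub-cluster) at 51.0 and 42.8 CPM in wild type and 20.4 and 15.7 CPM in TRα1+m. Both TRα1+m libraries lay below both of wild type, by more than the spread within either genotype. The log2 fold change was −1.37 ± 0.23 (SE; unadjusted p 0.00086, adjusted p 1.0, and with the repeat as a block adjusted p 7.0e-11). In this cell type the spread with the block was pooled over all genes, and DESeq2 with the block gave an adjusted p of 0.021.

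Nuclei with an Hr UMI made up 8.78% and 9.03% of wild-type astrocytes and 3.37% and 3.08% of TRα1+m astrocytes. In microglia and macrophages, given for comparison, the share was 0.592% to 1.28%, at median depths of 1367 to 1617.5 UMIs against 1662.5 to 2200 in astrocytes. That cluster also held 946 to 1433 CPM of the 5 astrocyte markers, so it does not set a background level. Thinned to 1000 UMIs per nucleus, the astrocyte shares were 4.32% and 4.26% against 2.02% and 1.74%. The order of the genotypes was kept.

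In Neurons_1 Hr was far lower in level, 2.47 and 2.78 CPM against 1.13 and 1.08 CPM, resting on 101, 134, 51 and 40 UMIs. These levels lay below the range in microglia and macrophages, 4.08 to 8.34 CPM. The genotypes did not overlap, and the log2 fold change of −1.24 ± 0.26 (unadjusted p 0.0054, adjusted p 1.0; with the block adjusted p 0.205) stood beside −1.37 in astrocytes. The effect in the astrocyte sub-cluster minus that in Neurons_1 was −0.12 (95% interval −0.74 to 0.49, adjusted p 1.0; with the block −0.14, adjusted p 1.0), a comparison chosen after the values were seen. The 5 astrocyte markers in the same neurons stood at 325 and 264 CPM in wild type and 415 and 186 CPM in TRα1+m. The part of astrocyte RNA in the neuronal Hr values was not tested. In oligodendrocytes Hr stood at 14.3 and 9.97 CPM in wild type and 8.67 and 12 CPM in TRα1+m, which overlap (log2 fold change −0.24 ± 0.36, adjusted p 0.999). OPC and microglia held 2 to 8 Hr UMIs per library and were not tested.

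Klf9, a Krüppel-like transcription factor induced by T3, showed a different distribution. In oligodendrocytes it stood at 112 and 112 CPM in wild type and 76.5 and 79.2 CPM in TRα1+m. The difference was larger than the spread in either genotype, with a log2 fold change of −0.52 ± 0.16 (adjusted p 0.595; with the block 0.028, and 1.0 with DESeq2 and the block). Neurons_1 gave 40.8 and 39.3 against 30.7 and 25.2 CPM, a log2 fold change of −0.52 ± 0.17 (adjusted p 1.0; with the block 0.197).

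In astrocytes, where Klf9 was much higher, the levels of 238 and 187 CPM in wild type and 182 and 188 CPM in TRα1+m overlapped, and within repeat 2 the difference was 0.014 on the log2 scale. Tanycytes had 120 and 116 against 93.7 and 99.7 CPM. Across the 14 sub-clusters Klf9 had a negative log2 fold change in all 14, from −0.79 in POMC/CART Neurons to −0.20 in astrocytes. Both TRα1+m libraries lay below both of wild type in 10 (10.5% to 15.4% of all genes). The 14 sub-clusters share the same libraries, so these are not independent observations. In GABA Neurons, the largest sub-cluster with 15042 nuclei, Klf9 stood at 39.0 and 37.2 against 29.4 and 24.4 CPM and was called with the block (adjusted p 0.0087; 1.0 with DESeq2 and the block).

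Dbp, a clock-controlled transcription factor, differed between repeats in astrocytes. In the astrocyte sub-cluster it stood at 43.8 and 77.3 CPM in wild type and 37.6 and 64.3 CPM in TRα1+m. Repeat 2 was high in both genotypes, and the genotypes overlapped, as they did in Neurons_1 at 18.5 and 27.8 against 17.6 and 20.1 CPM. In oligodendrocytes, at 40.7 and 41.7 against 37.7 and 35.9 CPM, and in tanycytes, at 46.2 and 59.7 against 45.8 and 36.1 CPM, both TRα1+m libraries lay below both of wild type, with log2 fold changes of −0.16 ± 0.20 and −0.36 ± 0.30. The log2 fold change lay between −0.43 and −0.16 in the 5 main clusters that could be tested, with adjusted p 0.999 or above. Its sign turned in Neurons_1, astrocytes and microglia when 1 library was left out.

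Among the glial genes, Kcnj10 encodes the potassium channel Kir4.1 of astrocytes and oligodendrocytes. In astrocytes (sub-cluster) it stood at 216 and 248 CPM in wild type and 137 and 152 CPM in TRα1+m. In oligodendrocytes the levels were 137 and 129 against 85.9 and 80.4 CPM. In both cell types the libraries of the genotypes stood well apart.

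The log2 fold change of Kcnj10 was −0.68 ± 0.16 in astrocytes (adjusted p 1.0; with the block 2.5e-05) and −0.67 ± 0.16 in oligodendrocytes (adjusted p 0.342; with the block 0.0015). DESeq2 with the block called neither (adjusted p 0.15 and 0.32). Within repeats the differences were −0.66 and −0.70 in astrocytes and −0.67 and −0.68 in oligodendrocytes. The difference between these effects was −0.02 (95% interval −0.38 to 0.34, adjusted p 1.0). OPC stood at 78.3 and 87.9 against 55.2 and 70.8 CPM, also apart, with a log2 fold change of −0.40 ± 0.22 (adjusted p 1.0).

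Neuronal levels of Kcnj10 were low. Neurons_1 had 23.5 and 16.8 CPM in wild type and 14.8 and 5.44 CPM in TRα1+m (log2 fold change −0.99 ± 0.50, adjusted p 1.0, and 0.404 with the block; DESeq2 with the block called it, with an adjusted p of 0.0043). The 5 astrocyte markers in these neurons stood at 325 and 264 CPM in wild type and 415 and 186 CPM in TRα1+m. Kcnj10 was called with the block in the MCH Neurons sub-cluster, where depth and astrocyte markers stood apart, at 60.9 and 53.3 against 23.4 and 17.8 CPM (adjusted p 0.00011), and in GABA Neurons (0.0072) and Glutamatergic Neurons_2 (0.017). DESeq2 with the block gave an adjusted p of 1.0 in all 3. Kcnj10 is itself an astrocyte gene and was lower in TRα1+m astrocytes as well. The part of astrocyte RNA in the neuronal values was not tested.

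Itih3 encodes a heavy chain of the inter-alpha-trypsin inhibitors, secreted proteins of the extracellular matrix. Its level in astrocytes (sub-cluster) depended on the repeat, 773 and 1559 CPM in wild type and 436 and 1030.4 CPM in TRα1+m. Each repeat had the lower value in TRα1+m, by 0.82 and 0.60 on the log2 scale, but across repeats the genotypes overlapped. The log2 fold change of −0.67 ± 0.53 had an adjusted p of 1.0, and with the block it was called (adjusted p 5.3e-07; 0.014 with DESeq2 and the block).

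Tanycytes gave 90.2 and 103 CPM of Itih3 against 50 and 48.1 CPM, with no overlap, a log2 fold change of −0.97 ± 0.24 and an adjusted p of 1.0, or 0.015 with the block (1.0 with DESeq2 and the block). Of the members tested in tanycytes it had the largest change. OPC had 45.4 and 38.6 against 34.3 and 26.8 CPM, and microglia and macrophages 79.7 and 128 against 61.2 and 65.0 CPM. Neurons_1 had 26.1 and 26.3 against 20.5 and 10.2 CPM. The 5 astrocyte markers in these neurons stood at 325 and 264 CPM in wild type and 415 and 186 CPM in TRα1+m. The part of astrocyte RNA in the neuronal Itih3 values was not tested.

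Oligodendrocytes went the other way. Itih3 stood there at 80.6 and 75.1 CPM in wild type and 82.5 and 174 CPM in TRα1+m, resting on 208, 211, 219 and 422 UMIs. Both TRα1+m values lay above both of wild type (15.9% of all genes did so), but the excess was in the TRα1+m library of repeat 2. The 5 astrocyte markers in those same oligodendrocytes stood at 813 and 627 CPM in wild type and 1116 and 620 CPM in TRα1+m. The part of astrocyte RNA in these Itih3 values was not tested. The log2 fold change was 0.72 ± 0.35 (adjusted p 0.999; with the block 0.062). Without the TRα1+m library of repeat 1 the estimate rests on a single mutant library, that of repeat 2, so no call is read from it.

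**Figure D3:**
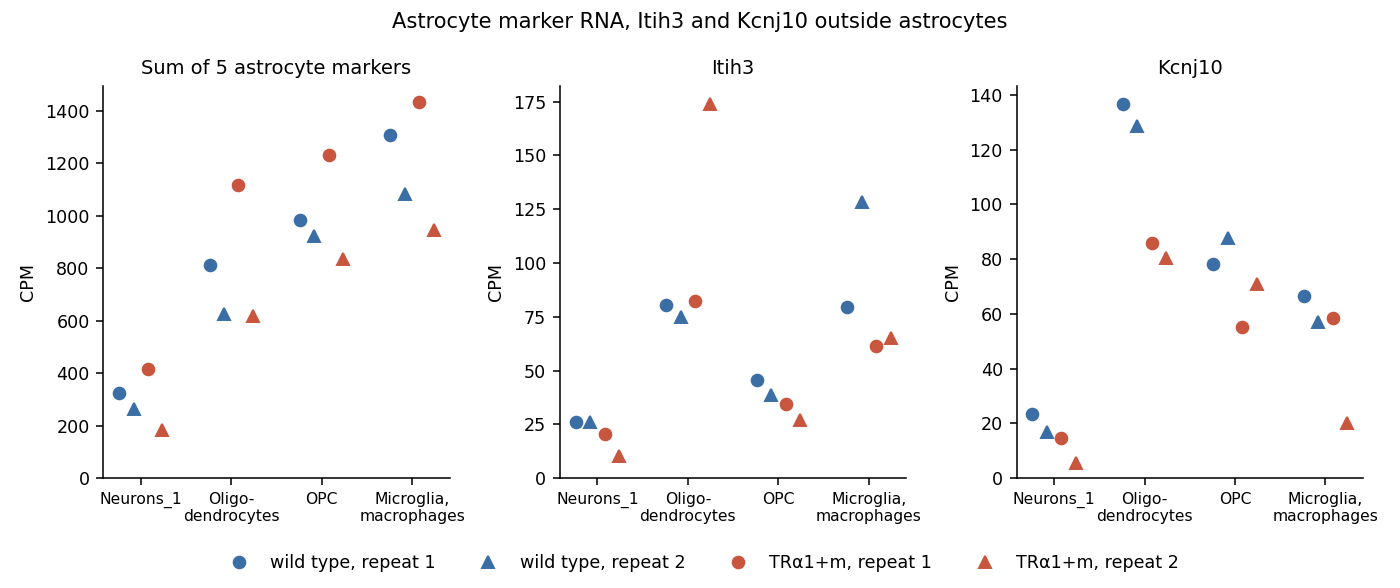
CPM per library of the sum of 5 astrocyte markers (left), Itih3 (middle) and Kcnj10 (right) in Neurons_1, oligodendrocytes, OPC and microglia with macrophages. Itih3 in oligodendrocytes reaches 174 CPM in the TRα1+m library of repeat 2. The marker sum there is 620 CPM, close to the 627 CPM of wild type in that repeat.

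Ky encodes the kyphoscoliosis peptidase, a protein known from the muscle cytoskeleton, and had the largest change of the 10 genes in the astrocyte sub-cluster. In that sub-cluster it stood at 16.2 and 17.0 CPM in wild type and 3.72 and 3.37 CPM in TRα1+m, from 61, 75, 16 and 12 UMIs. The libraries of a genotype lay close together and the genotypes far apart. The log2 fold change was −2.22 ± 0.30 (unadjusted p 0.00024, adjusted p 1.0; with the block adjusted p 1.3e-09, again on a spread pooled over all genes), and DESeq2 with the block gave no adjusted p for it.

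The share of astrocytes with a Ky UMI was 2.86% (exact 95% binomial interval 2.18% to 3.68%) and 3.76% (2.94% to 4.73%) in wild type, and 0.658% (0.376% to 1.07%) and 0.712% (0.368% to 1.24%) in TRα1+m. These intervals cover counting error only. In oligodendrocytes the share was 0.0609% to 0.501% at median depths of 1493 to 1811.5 UMIs, below the 0.658% and 0.712% of TRα1+m astrocytes. Thinned to 1000 UMIs, astrocytes had 1.10% and 1.46% against 0.379% and 0.18%.

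Tanycytes, which share the main cluster with astrocytes and hold the highest Ky level, did not show this. They had 35.0 and 27.4 CPM in wild type and 28.1 and 27.5 CPM in TRα1+m, from 31, 28, 27 and 16 UMIs, and the genotypes overlapped (log2 fold change −0.16 ± 0.33). That sub-cluster also held ependymal markers, higher in repeat 1 of both genotypes, and astrocyte markers. Their part in these Ky values was not tested. Neurons_1 had 5.48 and 4.61 against 4.04 and 4.68 CPM, which overlap as well. Within Neurons_1, the MCH Neurons sub-cluster had 6.85 and 7.78 against 2.25 and 1.87 CPM, but on 10, 14, 5 and 2 UMIs (log2 fold change −1.76 ± 0.71, adjusted p 1.0). In Glutamatergic Neurons_1 both TRα1+m libraries lay above wild type, at 5.22 and 5.14 against 3.16 and 4.61 CPM (11.8% of all genes did so; log2 fold change 0.41, adjusted p 1.0), and in CART Neurons_1 the levels overlapped.

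**Figure D4:**
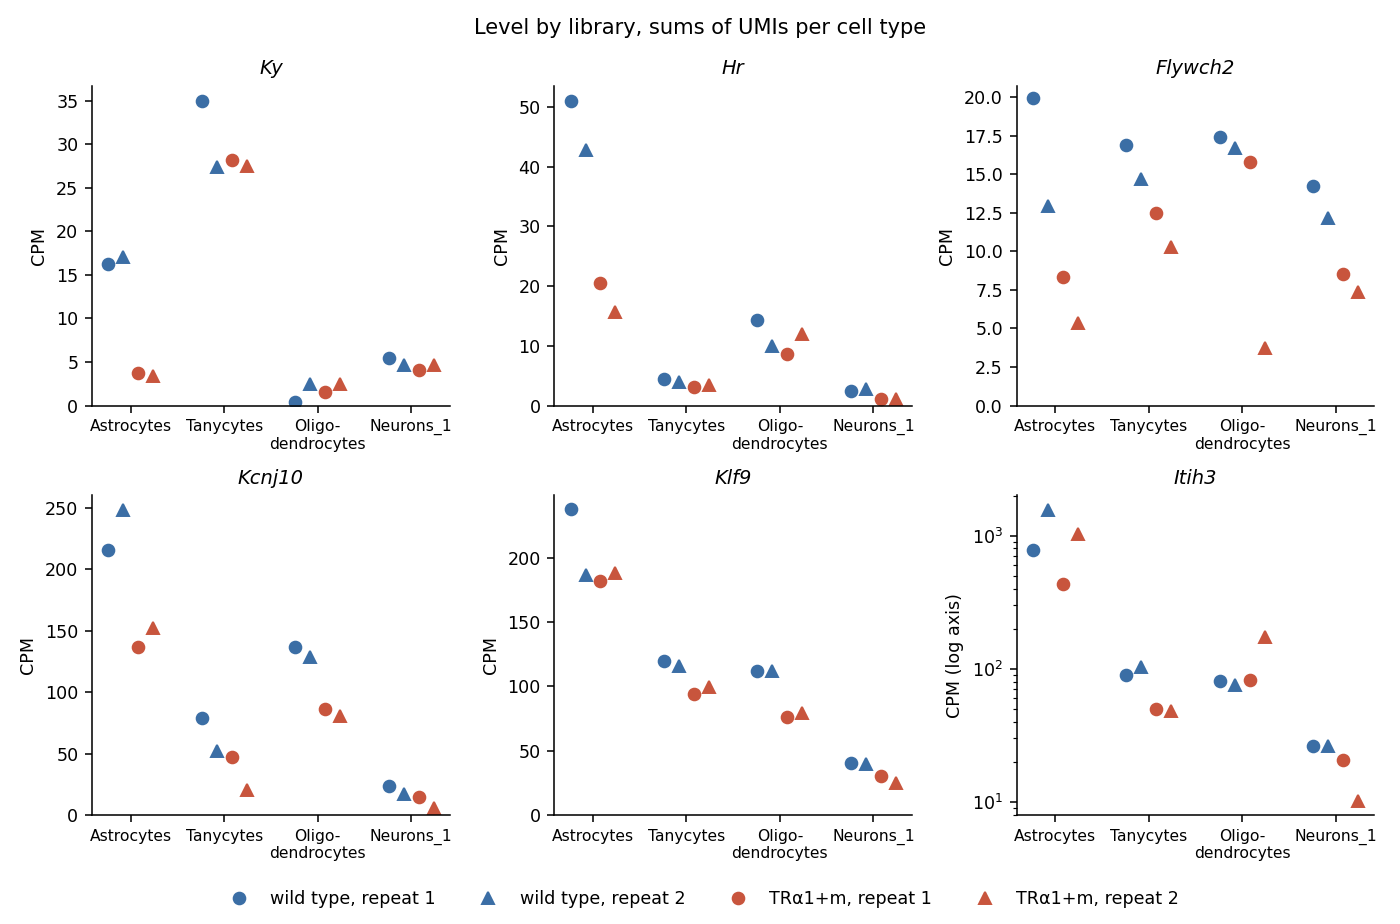
CPM per library of 6 of the genes in astrocytes, tanycytes, oligodendrocytes and Neurons_1, with wild type in blue and TRα1+m in red, circles for repeat 1 and triangles for repeat 2 (Itih3 on a log axis). Ky and Hr separate the genotypes in astrocytes, while Ky in tanycytes and Hr in oligodendrocytes overlap.

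Flywch2, a gene of the FLYWCH zinc finger family, had both TRα1+m libraries below both of wild type in every cell type in which it could be tested. Astrocytes had 19.9 and 12.9 CPM in wild type and 8.37 and 5.33 CPM in TRα1+m, with a log2 fold change of −1.24 ± 0.37 (adjusted p 1.0; with the block 0.00065, and no adjusted p from DESeq2 with the block). Neurons_1 had 14.2 and 12.2 against 8.53 and 7.34 CPM, −0.73 ± 0.20 (adjusted p 1.0; with the block 0.187). The differences within repeats in Neurons_1 were −0.74 and −0.73.

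In oligodendrocytes Flywch2 stood at 17.4 and 16.7 against 15.8 and 3.71 CPM, so that nearly all of the difference came from the TRα1+m library of repeat 2, with 9 UMIs. Microglia and macrophages had 19.9 and 23.8 against 19.0 and 11.7 CPM and showed the same uneven pattern. Of the 10 sub-clusters tested, all 10 had both TRα1+m libraries below both of wild type (10.5% to 14.2% of all genes in these sub-clusters), with log2 fold changes between −1.24 in astrocytes and −0.44 in tanycytes. These sub-clusters share the same libraries and are not independent. Reads of the antisense gene Gm16275 could add to these counts if strand was not used.

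Nrgn, neurogranin, binds calmodulin in dendrites and is a known T3 target of forebrain neurons. Neurons_1 had 41.2 and 32.1 CPM in wild type and 39.0 and 25.2 CPM in TRα1+m, which overlap, and repeat 2 was lower in both genotypes. Astrocytes overlapped as well, at 64.6 and 46.9 against 53.7 and 34.5 CPM. Somatostatin+ Neurons, with the highest level, had 106 and 88.0 against 107 and 74.0 CPM. No main cluster had the genotypes apart. Glia had Nrgn levels of the same order, such as 77.5 and 54.5 against 83.3 and 33.8 CPM in oligodendrocytes, and the 6 neuronal markers there were lowest in the TRα1+m library of repeat 2 too, at 672 CPM against 902 to 911 CPM in the others.

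Sema7a, a membrane-anchored semaphorin, overlapped where it was highest: the MCH Neurons sub-cluster had 21.9 and 56.7 CPM in wild type and 32.4 and 37.4 CPM in TRα1+m. In oligodendrocytes it stood at 12.4 and 17.4 against 9.05 and 10.3 CPM, apart but not called (log2 fold change −0.63 ± 0.33, adjusted p 0.999). In astrocytes it was apart too, at 3.72 and 4.53 against 2.56 and 1.12 CPM on 4 to 20 UMIs. Neurons_1, at 4.89 and 9.17 against 5.44 and 6.88 CPM, overlapped.

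Stard4, a gene on chromosome 18, encodes a carrier of cholesterol between membranes. Oligodendrocytes had 8.14 and 9.26 CPM in wild type and 5.65 and 3.30 CPM in TRα1+m, from 21, 26, 15 and 8 UMIs (log2 fold change −0.94 ± 0.44, adjusted p 0.999). Neurons_1 had 5.11 and 6.25 against 4.29 and 4.98 CPM, also apart, with a log2 fold change of −0.30 ± 0.23. Astrocytes had 9.30 and 9.29 against 7.44 and 6.73 CPM, apart with little spread within a genotype, and a log2 fold change of −0.39 ± 0.30 that was not called (adjusted p 1.0; with the block 0.76). In MCH Neurons, where it was highest, Stard4 overlapped at 9.58 and 16.7 against 15.3 and 14.9 CPM.

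The smaller glial clusters added few values for the genes not yet given there. In OPC, Klf9 stood at 59.5 and 49.2 against 45.7 and 35.0 CPM, Ky at 10.2 and 11.4 against 8.25 and 6.71 CPM, and Flywch2 at 11.7 and 15.9 against 8.25 and 4.47 CPM. All of them had the genotypes apart, and none had an adjusted p under 0.999. Dbp, Nrgn and Sema7a overlapped there, and Stard4, at 7 and 8 UMIs against 10 and 12, was not tested.

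In microglia and macrophages Klf9 stood at 84.7 and 80.9 against 80.2 and 63.4 CPM, and Kcnj10, at 66.4 and 57.1 against 58.5 and 20.0 CPM, overlapped, as did Dbp and Nrgn. Ky, Hr, Sema7a and Stard4 had at most 8 UMIs in a library there. In the Non-neuronal cluster Kcnj10 stood at 193 and 209 against 139 and 168 CPM, apart but not called. Itih3, at 613 and 1288 against 340 and 738 CPM, overlapped across repeats and was called with the block (adjusted p 0.0066; 1.0 with DESeq2 and the block), and Klf9 overlapped at 213 and 233 against 216 and 190 CPM. The other 7 genes had too few UMIs to be tested in that cluster, and Stard4 had 0 UMIs.

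**Figure D5:**
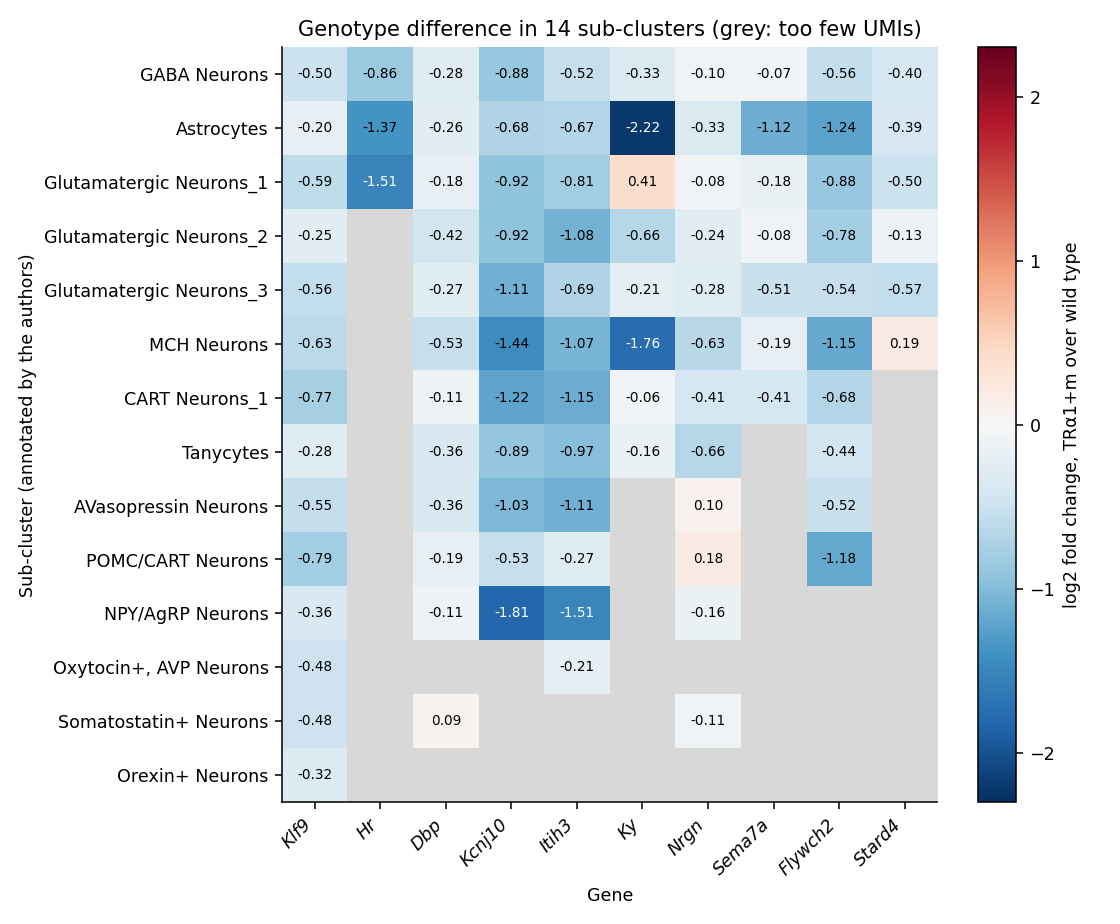
Log2 fold change, TRα1+m over wild type, of the 10 genes (columns) in 14 sub-clusters (rows, in order of nuclei), blue for lower and red for higher in TRα1+m, grey where a gene did not pass the filter on low counts. Klf9, Flywch2, Kcnj10, Itih3 and Hr are below 0 in all sub-clusters in which they were tested, and the largest value is that of Ky in astrocytes, −2.22.

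Over the sub-clusters the test without a block called 0 members (0% to 0.043% of all genes were called in a sub-cluster), DESeq2 called 0, and the block called 12 in 5 sub-clusters. These were Ky, Hr, Kcnj10, Itih3 and Flywch2 in astrocytes (1.74% of all genes), Itih3 in tanycytes (0.481%), Kcnj10 and Klf9 in GABA Neurons (0.684%), and Kcnj10 with Itih3 in Glutamatergic Neurons_2 (0.678%; Itih3 adjusted p 0.00066) and in MCH Neurons (0.896%; Itih3 adjusted p 0.00011). Of these 12, DESeq2 with the block called 2, Hr and Itih3 in astrocytes (0.0705% of all genes), and gave no adjusted p for Ky and Flywch2. A negative log2 fold change was found for Kcnj10 in 11 of 11 sub-clusters, Itih3 in 12 of 12, Flywch2 in 10 of 10, Hr in 3 of 3 and Sema7a in 7 of 7. It was found for Dbp in 11 of 12, Nrgn in 10 of 12, Ky in 7 of 8 and Stard4 in 5 of 6. Only sub-clusters in which a gene passed the filter on low counts are included. All share the same 4 libraries, so these are not independent observations. In Glutamatergic Neurons_2 the 5 astrocyte markers summed to 260 and 201 CPM in wild type and 325 and 136 CPM in TRα1+m. The part of astrocyte RNA in the neuronal values of Itih3, Kcnj10 and Hr was not tested. Over all genes the median log2 fold change of a sub-cluster lay between −0.012 and 0.0099. The largest change of a sub-cluster was that of Kcnj10 in NPY/AgRP Neurons (−1.81 ± 0.68, on 3 to 18 UMIs, where 0.0119% of all genes were called), CART Neurons_1 (−1.22 ± 0.62), Glutamatergic Neurons_3 (−1.11 ± 0.43) and GABA Neurons (−0.88 ± 0.51). It was that of Itih3 in AVasopressin Neurons (−1.11 ± 0.47) and Glutamatergic Neurons_2 (−1.08 ± 0.30), of Hr in Glutamatergic Neurons_1 (−1.51 ± 0.58), of Flywch2 in POMC/CART Neurons (−1.18 ± 0.59), and of Klf9 in Somatostatin+, Oxytocin+, AVP and Orexin+ Neurons (−0.48 ± 0.37, −0.48 ± 0.52 and −0.32 ± 0.61), none of them with an adjusted p under 0.999. Several of these rest on low levels. Over the libraries Hr in Glutamatergic Neurons_1 ranged from 0.331 to 1.94 CPM and Flywch2 in POMC/CART Neurons from 5.11 to 14.7 CPM. Klf9 in Orexin+ Neurons ranged from 11.7 to 36.2 CPM.

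Whether the genotype effect differed from that in oligodendrocytes was tested directly, on the sums of both cell types with a term for each library. Over 7 such comparisons (5 main clusters and both sub-clusters of astrocytes, in which 0.0489% to 0.47% of all genes were called) 1 member was called, Itih3 in the Non-neuronal cluster (0.0489% of all genes), whose effect was lower by 1.47 ± 0.26 on the log2 scale (adjusted p 0.00014). The spread in that fit was pooled over all genes, and without the library term 0 were called. In astrocytes (sub-cluster) the effect of Itih3 differed from that in oligodendrocytes by −1.35 ± 0.35 (adjusted p 0.40), that of Hr by −1.14 ± 0.35 (0.35) and that of Ky by −2.62 ± 0.86 (0.42). Oligodendrocytes held 1 to 7 Ky UMIs per library, so the last value is weakly anchored.

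With the repeat as a block these 3 were called in the astrocyte sub-cluster (2.52% of all genes), with adjusted p 7.6e-11 for Itih3, 0.022 for Hr and 0.037 for Ky. In the main astrocyte cluster Itih3 (adjusted p 1.2e-12) and Hr (0.046) were called (2.65% of all genes). Itih3 was called with the block also in OPC (adjusted p 0.0012; 2% of all genes), microglia and macrophages (8.1e-06; 1.19%), the Non-neuronal cluster (2.2e-07; 0.0652%) and tanycytes (6.5e-09; 1.21%), while in Neurons_1 0 members were called (1.88%; 0.182% without the block). All of these comparisons share the oligodendrocyte libraries, and thus the high Itih3 value of the TRα1+m library of repeat 2. Klf9, Kcnj10, Dbp, Nrgn, Sema7a, Flywch2 and Stard4 were not called in any of these comparisons, with or without the block.

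The genotype effect on Ky in astrocytes was also compared with that in tanycytes and in Neurons_1, a comparison chosen after its values were seen. It was stronger in astrocytes by 2.05 on the log2 scale (−2.05, 95% interval −3.00 to −1.11) than in tanycytes, with an unadjusted p of 0.00029 and an adjusted p of 0.80 (0.00706% of all genes were called). With the block the adjusted p was 0.0044 (0.29%). Against Neurons_1 the difference was −2.01 (−2.80 to −1.22), with an adjusted p of 0.84 (0%) and 7.1e-05 with the block (0.467%).

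The receptor genes and other parts of the pathway were read from a list of 20 genes. In each main cluster 0 of them were called without the block. Thra, the gene of the mutated receptor, stood in Neurons_1 at 104 and 118 CPM in wild type and 80.2 and 83.2 CPM in TRα1+m, and in astrocytes at 170 and 183 against 143 and 135 CPM. It was singled out after its values were seen. Both alleles are counted together, and the genotypes were apart in Neurons_1, astrocytes, oligodendrocytes, OPC and microglia, but not in the Non-neuronal cluster. Of all genes, between 20.9% (Neurons_1) and 31.9% (oligodendrocytes) were apart in either direction in the clusters where Thra was. These clusters share the same 4 libraries and are not independent observations.

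Thrb, the gene of the other receptor, had the largest change of the list in oligodendrocytes, at 65.9 and 58.4 against 35.1 and 24.8 CPM. Its log2 fold change there was −1.05 ± 0.24 (adjusted p 0.32; with the block 2.5e-05, where 4.35% of all genes were called). In Neurons_1 Thrb stood at 238 and 233 against 221 and 208 CPM, a log2 fold change of −0.13. The median log2 fold change of the list was −0.093 in Neurons_1, −0.016 in astrocytes and −0.097 in oligodendrocytes.

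Of 23 other genes known to respond to T3, 0 were called without the block in any main cluster. The median log2 fold change of the tested genes of this list was −0.11 in astrocytes, −0.18 in Neurons_1 and −0.26 in oligodendrocytes. With the block 1 gene of the list was called in astrocytes, higher in TRα1+m (1.28% of all genes), and 1 in oligodendrocytes, lower in TRα1+m (4.35%). In oligodendrocytes the largest change was that of Aldh1a1, a retinoic acid producing enzyme, at 47.7 and 57.7 against 27.5 and 20.6 CPM (−1.13 ± 0.24, adjusted p 0.28; with the block 3.0e-05).

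Neighbouring programmes of Dbp and Stard4 were read the same way, and 0 genes were called without the block. Of 15 clock genes the median log2 fold change was 0.026 in astrocytes and −0.022 in Neurons_1, and 0 were called with the block in any main cluster. The list mixes core clock genes, such as Arntl, Clock and Per1, with output genes such as Tef. A median of signed changes can hide changes in opposite directions, so it does not show whether the clock differed. Of 10 genes of the sterol programme all 10 had a negative log2 fold change in oligodendrocytes, with a median of −0.55, and 4 were called there with the block (4.35% of all genes). Among the 4 were Insig1, a regulator of sterol synthesis, at 68.2 and 89.4 against 50.9 and 45 CPM (−0.72 ± 0.21, adjusted p 0.55; with the block 0.0041), and Hmgcs1, an enzyme of that pathway, at 70.1 and 111 against 48.2 and 77.1 CPM (−0.53 ± 0.32, adjusted p 0.999; with the block 0.037). The genotypes were apart for Insig1 and overlapped for Hmgcs1. In astrocytes the median of this list was −0.27 and 0 were called. Of 10 genes of the glucocorticoid response, Sgk1 was called with the block in oligodendrocytes (77.5 and 122 against 34.7 and 55.7 CPM, adjusted p 1.9e-07, against the same 4.35% of all genes). In astrocytes the largest change of that list was that of Sult1a1, a sulfotransferase, which stood at 2.34 and 3.67 against 9.05 and 5.44 CPM (log2 fold change 1.26 ± 0.45, adjusted p 1.0; with the block 0.063).

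Among the marker lists, 1 of 5 tanycyte markers was called in oligodendrocytes without the block (0.103% of all genes). This was Col23a1, a membrane collagen gene, which rose from 11.2 and 10.7 CPM in wild type to 161 and 176 CPM in TRα1+m (log2 fold change 3.94 ± 0.19, adjusted p 0.0070). The other 4 tanycyte markers were not called there, and the part of this difference in the values of the 10 genes in oligodendrocytes was not tested.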

How the data were processed

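Nuclei from snap-frozen hypothalamus were pooled by genotype and sequenced with 10x Genomics chemistry. The deposited matrices hold raw UMI counts per gene and nucleus, which the authors made with Cell Ranger 5.0.1 on their mm10 reference, introns included, without normalisation. The deposited annotation gives each kept nucleus a main cluster and a sub-cluster from the authors' Seurat analysis; it was used as it stands, and the authors had removed nuclei with a high doublet score. The members and gene lists were chosen with earlier results of these data known. All 10 members were named in every main cluster; in sub-clusters a member was named if called, if its change was the largest, or if the cells were astrocytes or tanycytes; list genes were named if called or largest in a cell type, and likeness took the 2 highest Pearson r. Some genes that this rule names are not reported here.

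UMIs were summed per library and cell type (at least 10 nuclei in every library) and tested with edgeR 4.0.16 in R 4.3.3 (filterByExpr, TMM, robust quasi-likelihood F-test, two-sided, Benjamini-Hochberg over all genes of the cell type). Each library is 1 pool of mice, so p-values measure the spread between pools. Libraries held 51877331 and 59112785 UMIs (wild type) and 55366391 and 47260127 (TRα1+m). The pairing by experimental repeat comes from the repeat numbers in the labels and the methods: over all genes the deviations of same-numbered libraries correlated with r between 0.30 (Orexin+ Neurons) and 0.78 (all nuclei). Differences of effects were tested as an interaction of cell type and genotype on 8 sums. Calls in all nuclei and in clusters were recomputed with DESeq2 1.42.0, RLE factors, no filter, the block, a bias-adjusted fit and each library left out, those in clusters also with equal numbers of nuclei, and the differences from oligodendrocytes with RLE factors, no filter, no library term, the block and each library left out; DESeq2 and the bias-adjusted fit with the block, the comparison of astrocytes with tanycytes and Neurons_1, and the marker check of neuronal sub-clusters with Pmch (share of all UMIs) were added after the data were seen. The edgeR and DESeq2 scripts were tested on simulated data. Python 3.11.15, pandas 2.3.3 and scipy 1.17.1 were used. Promoter sequences are from RefSeq.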

Additional observations from a re-analysis of the deposited data

Results flagged for a closer look

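Differences of genotype effects between cell types that passed their own test are given here as values on the log2 scale, effect in the first cell type minus effect in the second. Without the block, Itih3 in the Non-neuronal cluster differed from oligodendrocytes by −1.47. With the repeat as a block, Itih3 differed from oligodendrocytes by −1.33 in astrocytes, −1.37 in the astrocyte sub-cluster, −1.07 in OPC, −1.39 in microglia and macrophages, −1.49 in the Non-neuronal cluster and −1.58 in tanycytes. These 6 values share the oligodendrocyte libraries, of which the TRα1+m library of repeat 2 held 174 CPM of Itih3 against 75.1 to 82.5 CPM in the others.

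With the block, Hr differed from oligodendrocytes by −1.08 in astrocytes and −1.14 in the astrocyte sub-cluster, and Ky by −2.80 in the astrocyte sub-cluster. The effect on Ky in the astrocyte sub-cluster differed from that in tanycytes by −2.03 and from that in Neurons_1 by −2.0 with the block, a comparison chosen after the values were seen. The block leaves the spread of these fits pooled over all genes in most cell types.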

How the results depend on the processing

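The sign of 66 of 83 log2 fold changes (10 genes in main clusters, all nuclei and the astrocyte sub-clusters) was the same under every alternative. The signs that turned did so only when a library was left out, and the cause was not tested: over these fits Nrgn ranged from −0.60 to 0.088 in all nuclei, −0.57 to 0.066 outside oligodendrocytes, −0.54 to 0.089 in Neurons_1, −0.96 to 0.33 in oligodendrocytes and −1.26 to 0.066 in OPC; Dbp from −0.56 to 0.019 in all nuclei, −0.58 to 0.043 outside oligodendrocytes, −0.57 to 0.022 in Neurons_1, −0.60 to 0.20 in astrocytes, −0.70 to 0.20 in the astrocyte sub-cluster and −0.57 to 0.33 in microglia; Sema7a from −0.65 to 0.19, −0.63 to 0.26, −0.58 to 0.33 and −0.84 to 0.56 in all nuclei, outside oligodendrocytes, Neurons_1 and OPC; Hr in oligodendrocytes from −0.49 to 0.047; Ky in tanycytes from −0.32 to 0.017.

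Members called were 0 in main clusters, sub-clusters, all nuclei and outside oligodendrocytes. With the replicate block they were 8, 12, 4 and 4, the same counts as with the bias-adjusted fit with the block. With DESeq2 and the block they were 3, 2, 4 and 4. Of all genes, DESeq2 with the block called 0% to 0.666% in main clusters and 0% to 0.0705% in sub-clusters. It called 0.273% in all nuclei and 0.0863% outside oligodendrocytes. Without the filter on low counts 3 were called in sub-clusters (Ky, Hr and Itih3 in astrocytes, where 0.145% of all genes were called). Fits with a library left out rest on a single library in 1 genotype, so calls are not read from them. Effects that differed from oligodendrocytes, 1 at first, were 0 without the library term (0% to 0.0476% of all genes in a comparison). They were 9 with the replicate block (0.0652% to 2.65%) and 5 without the filter (0.0231% to 1.2%). All but 3 of the blocked calls were Itih3. RLE factors changed none of these 5 counts, and equal numbers of nuclei, run for main clusters and sub-clusters, changed neither of those. With 2 libraries per genotype and 2 to 20 UMIs per library, Hr, Ky, Stard4 and Sema7a are at the limit of depth in small clusters. Flywch2, with 6 to 21 UMIs per library in OPC, and Kcnj10 in NPY/AgRP Neurons are near that limit too.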
